A study of Mus musculus with 4 samples.

Results

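The genes described here are 38 members of the mouse table of 55487 genes: 36 autosomal imprinted genes from 16 domains or loci, and Xlr3b and Xlr3c, near-identical copies on the X chromosome. They were found in the deposited table by their symbols, and all 38 were present. The group was drawn up after its mock against knockout values were known, and Magel2 and Xlr3c in particular were chosen by their low counts in the knockout libraries. For Magel2, Xlr3b and Xlr3c the difference from mock is therefore given as a description with no test. The other imprinted genes were taken as well-known members of their domains. Of the 38 members, 32 had at least 1 count and 27 passed the filter on low counts that precedes the test across all genes.

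Imprinted genes are expressed mainly or only from the chromosome inherited from one parent. Each domain is governed by an imprinting control region whose DNA methylation is set in the germ line of one parent and copied at every cell division. Many of these genes act on fetal growth, on the insulin-like growth factor (IGF) axis, on the cell cycle and on behaviour, and several are silent in most adult tissues. The deposited counts do not separate the alleles, so the expressed allele named below is background. Magel2 belongs to the Prader-Willi region of chromosome 7, where a cluster of genes is expressed from the paternal chromosome. The Xlr3 genes belong to an X-linked, lymphocyte-regulated family, and Xlr3b is known for expression from the maternal X in brain.

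Poly(A) RNA was sequenced from tumours of AXT cells, which came from bone marrow stromal cells of Ink4a/Arf-deficient mice made to overexpress c-MYC and which form osteosarcoma in mice. The mock group was 1 library of AXT cells with the label of a wild-type genotype, and the knockout group was 3 libraries of AXT lines labelled as HIF-1alpha knockouts (named HIF-1alphaKO AXT1-1, AXT1-2 and AXT2). In both groups the cells were injected in matrigel into C57BL/6scid mice, which lack mature lymphocytes but keep macrophages and other innate cells, and the tumours were taken after 1 day. The sources used here do not give the age and sex of the mice, the number of tumours behind a library, the editing of each line or whether a line is a single clone. They also do not say which of the columns c11, c15 and c22 holds which line. Differences among c11, c15 and c22 are therefore differences between single libraries, and they cannot be told apart from differences between lines.

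Total counts were 12383719 in mock and 12910058 to 13193264 in the knockout libraries. Levels are given as CPM, the count scaled to a library total of 1000000, with exact 2-sided 95% Poisson intervals that cover counting error only. Folds against a count of 0 use a floor of 3 counts, 0.228 to 0.242 CPM, which is lower than the end of the 2-sided interval drawn for a count of 0 in the plots (0.280 to 0.298 CPM for Igf2, at 0 in every library). Such folds take the higher count as measured, without its counting error, so they are not lower limits. Hif1a RNA was 107 CPM in mock against 102.5 (c11), 98.9 (c15) and 22.7 (c22). The RNA level thus separated c22 from mock but not c11 or c15. An edit that spares the transcript leaves its count as it was, so for c11 and c15 the level does not check the label. Of 10 osteoblast markers, Runx2 was at 118 to 244 CPM, and the sum of 3903 to 10243 CPM came mostly from the collagen genes Col1a1 and Col1a2. The late marker Bglap was at or near 0 (0 to 1.45 CPM), and Dmp1 had 75.4 CPM in mock against 0.612 (c11), 16.5 (c15) and 9.47 (c22). RNA of other cell types differed between libraries: the summed skeletal muscle markers (8 of 8 detected in mock) were 105.5 CPM in mock against 4.97 (c11), 1.37 (c15) and 20.4 (c22), and the summed erythroid markers were 116, 1.61, 4.26 and 41.7 CPM. Macrophage markers summed to 716 CPM in mock and 221 to 403 CPM in the knockout libraries. Mock was thus the library with the most muscle, erythroid and macrophage marker RNA. This did not hold for every list: the summed neutrophil markers were 10.2 CPM in mock against 4.59 (c11), 14.6 (c15) and 16.8 (c22).

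The Xlr3 copies show why their counts have to be read together. Xlr3a, a further copy that is no member of the group, has the same coding length of 678 bases as Xlr3b and Xlr3c. Xlr3b and Xlr3c differed at 4 of those positions (99.4% identity), and Xlr3a differed from each of them at 12 (98.2% identity). A stretch of coding positions 189 to 248, counted from the start codon on the coding (sense) strand, holds 3 of the 14 variable positions. These are shown in capitals in the GRCm38 sequence of each copy, read 5′ to 3′.
Xlr3a: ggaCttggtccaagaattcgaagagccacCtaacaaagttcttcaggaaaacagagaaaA
Xlr3b: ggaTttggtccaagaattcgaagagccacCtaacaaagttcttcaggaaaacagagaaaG
Xlr3c: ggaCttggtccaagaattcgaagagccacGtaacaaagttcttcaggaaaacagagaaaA
A read that falls between such positions fits more than one copy. Of all 50-base stretches of the protein-coding transcripts, 6.67% of those of Xlr3b, 27.9% of those of Xlr3c and 27.4% of those of Xlr3a occurred in no other gene. At 150 bases the shares were 52.0%, 70.4% and 70.2%. Magel2, Ndn, Mkrn3 and Peg12 are intronless, and 100% of their stretches were their own at each length tried.

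RefSeq promoter windows (GRCm38.p6, 250 bases before to 50 after the start) matched 32 members, with 47 windows in all. The upstream part of the windows of Magel2 and of its neighbour Peg12, whose counts diverged most among the knockout libraries, and of the Xlr3 copies is given here, with CpG sites, the targets of DNA methylation, in capitals. The windows lie at chr7:62376729-62376978 (plus strand) for Magel2, chr7:62464511-62464760 (minus) for Peg12, chrX:73097096-73097345 (minus) for Xlr3a, chrX:73191929-73192178 (plus) for Xlr3b and chrX:73265391-73265640 (minus) for Xlr3c.
Magel2: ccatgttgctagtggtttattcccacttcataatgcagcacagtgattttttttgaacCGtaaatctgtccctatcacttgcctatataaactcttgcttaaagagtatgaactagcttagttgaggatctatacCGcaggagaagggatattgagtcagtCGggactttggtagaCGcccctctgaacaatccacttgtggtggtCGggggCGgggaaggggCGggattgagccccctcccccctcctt
Peg12: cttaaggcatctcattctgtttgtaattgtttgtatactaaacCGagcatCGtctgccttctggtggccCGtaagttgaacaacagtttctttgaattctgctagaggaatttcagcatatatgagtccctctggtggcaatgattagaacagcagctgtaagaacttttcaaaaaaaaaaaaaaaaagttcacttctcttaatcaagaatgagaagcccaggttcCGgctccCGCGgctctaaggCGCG
Xlr3a: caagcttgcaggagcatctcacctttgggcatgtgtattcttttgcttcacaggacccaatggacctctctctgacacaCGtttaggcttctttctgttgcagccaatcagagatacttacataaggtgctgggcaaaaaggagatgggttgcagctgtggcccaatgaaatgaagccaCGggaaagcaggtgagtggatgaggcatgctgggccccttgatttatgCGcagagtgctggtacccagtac
Xlr3b: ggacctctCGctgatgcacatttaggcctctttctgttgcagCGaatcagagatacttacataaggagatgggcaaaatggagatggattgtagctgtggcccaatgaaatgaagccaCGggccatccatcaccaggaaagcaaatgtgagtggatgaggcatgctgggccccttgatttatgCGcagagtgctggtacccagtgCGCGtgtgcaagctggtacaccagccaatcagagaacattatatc
Xlr3c: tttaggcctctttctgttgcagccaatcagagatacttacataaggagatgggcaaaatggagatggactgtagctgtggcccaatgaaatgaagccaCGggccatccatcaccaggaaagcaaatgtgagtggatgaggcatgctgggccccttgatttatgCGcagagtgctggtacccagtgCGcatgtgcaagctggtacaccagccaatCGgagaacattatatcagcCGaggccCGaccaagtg
These stretches hold 7 CpG sites for Magel2, 8 for Peg12, 3 for Xlr3a and 6 each for Xlr3b and Xlr3c. Over the full windows of 300 bases, the overlapping parts of the Xlr3b and Xlr3c promoters were 98.1% identical, and that of Xlr3a was 93.7% identical to Xlr3b and 95.4% to Xlr3c. These shares leave out gap bases, of which there were 11 between Xlr3b and Xlr3c and 17 between Xlr3a and each of them. Member windows held a median of 13 CpG sites, against 7 over all 32851 windows. The core letters of the hypoxia response element, ACGTG or GCGTG on either strand, stood in 25 of the 47 member windows and in 43.8% of all windows. Neither was found in the windows of Magel2, Peg12 or Xlr3c, while Xlr3b held GCGTG and Xlr3a held ACGTG. A match is a description of letters only, and no methylation was measured here.

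The comparison of mock with knockout asks how loss of HIF-1alpha changes expression in the tumour. Levels of the 27 tested members stood on both sides of mock. Magel2, Mkrn3, Peg12, H19, Phlda2, Grb10, Meg3, Asb4, Xlr3b and Xlr3c (10 members) were lower than mock in all 3 knockout libraries, where 22.2% of the 15706 genes tested were. Snrpn, Kcnq1ot1, Airn, Impact and H13 (5 members) were higher in all 3, where 21.4% of all genes were. Because the group was drawn up from this contrast, and because Magel2, Meg3, Xlr3b and Xlr3c passed the filter only through mock, nothing is read from these counts. Without c15, 12 members were below mock and 11 above it in the other knockout libraries, and the matching shares of all genes were not counted. The muscle, erythroid and macrophage marker sums were also highest in mock, and their part in the members' differences was not tested. The median fitted log2 fold change (knockout minus mock) was 0.11 over the 27 members and 0.28 without Magel2, Xlr3b and Xlr3c, beside 0.05 over all genes tested.

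Xlr3c was chosen by this contrast, so its call in edgeR's quasi-likelihood test (adjusted p under 0.05) and in DESeq2 restates the choice and is no test of it. It was the 1 member called lower by either tool, where edgeR called 0.00637% and DESeq2 0.412% of all genes lower. No member was called higher, where edgeR called 0% and DESeq2 0.314% of all genes higher. The edgeR call did not hold after leaving out c11, c15 or c22 in turn, in limma-voom or with the older edgeR dispersion estimates. Of the 24 members other than Magel2, Xlr3b and Xlr3c, 0 passed: each had an adjusted p of 1 in edgeR, and 0 had an unadjusted p under 0.05, beside 402 genes lower and 176 higher among all tested. The single mock library has no replicate, so the test took its spread from the knockout libraries, with 2 residual degrees of freedom. A difference that missed the threshold is not shown to be absent.

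**Figure D1:**
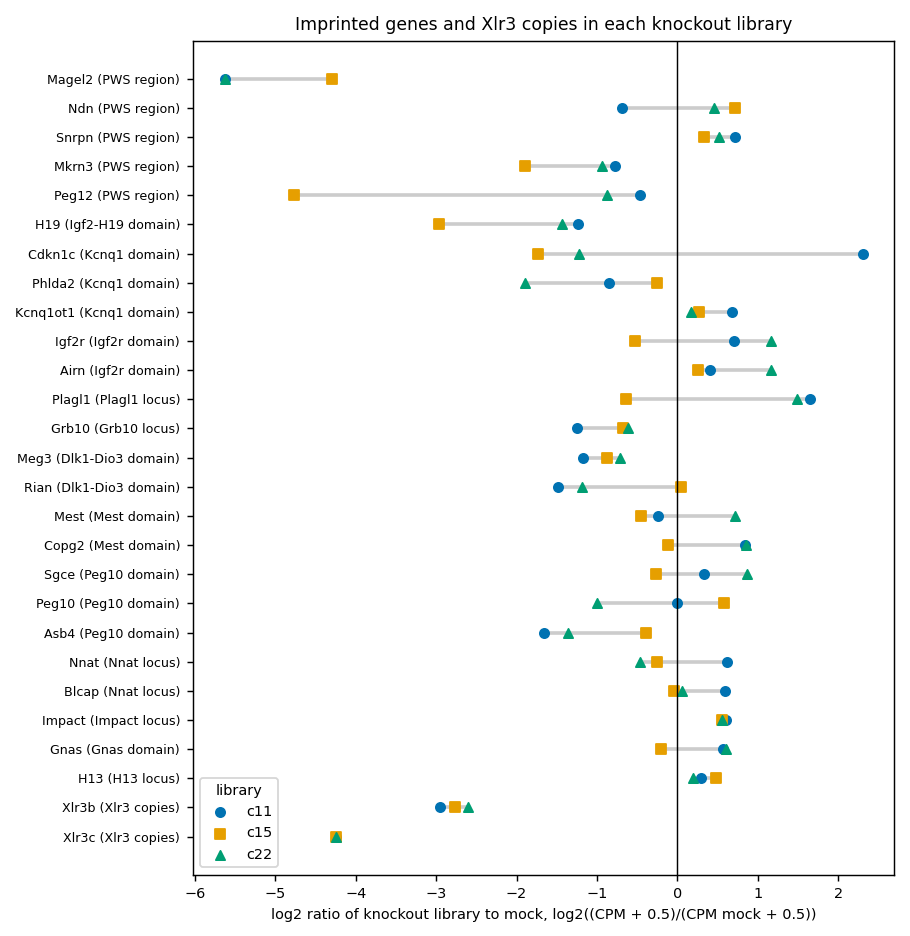
Log2 ratio of each knockout library to mock (0.5 CPM added) for the 27 tested members, labelled by domain; each point is 1 library and the grey line spans the 3 knockout libraries. Magel2, Xlr3b and Xlr3c lie far to the left in all 3 libraries, Peg12 does so only in c15, and Cdkn1c spans both sides of 0.

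Within the Prader-Willi region the members had different patterns over the libraries. Magel2 (ENSMUSG00000056972, chromosome 7, 62377010 to 62381640, GRCm38, plus strand) encodes a MAGE-family protein that regulates the TRIM27 ubiquitin ligase on endosomes. It had 300 counts in mock against 0 (c11), 10 (c15) and 0 (c22), or 24.2, 0, 0.760 and 0 CPM. Against a floor of 3 counts per library, mock was 105.5-fold higher than c11 and 103.9-fold higher than c22. Mock was 31.9-fold higher than c15 (interval 17.1 to 67.1). The knockout libraries differed from each other as well, with c15 3.31-fold over c11 against the same floor. In bulk tumours, fewer cells with the transcript and less transcript per cell cannot be told apart. Magel2 is best known in hypothalamic neurons. Of 6 neuron markers, Rbfox3 was at 0 in every library, Snap25, Syt1 and Elavl4 had 0 to 3 counts, and Map2 had 7 counts in mock against 80 (c11), 1 (c15) and 0 (c22). Tubb3 made up most of their sum, which was 8.23 CPM in mock and 5.90 to 30.3 CPM in the knockout libraries; the part of such cells in the Magel2 counts was not tested.

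The genes next to Magel2 had other patterns. Ndn, which encodes necdin, a MAGE-family growth suppressor, starts 30.4 kb upstream of Magel2, and had 1.05 CPM in mock against 0.459 (c11), 2.05 (c15) and 1.63 (c22), so that mock lay inside the knockout range. Mkrn3, a makorin ubiquitin ligase, had 6.13, 3.36, 1.29 and 2.95 CPM in the same order. Every knockout library was thus below mock for Mkrn3 (fitted log2 fold change -1.27 ± 0.65 SE, edgeR adjusted p = 1). Peg12, a FRAT-family protein that binds GSK3, had 318 counts in mock against 242 (c11), 6 (c15) and 178 (c22), or 25.7, 18.5, 0.456 and 13.8 CPM. Here c15 alone stood apart, 40.6-fold below c11 (interval 18.4 to 112) and 30.3-fold below c22 (13.7 to 83.7). Magel2 and Peg12 were thus lowest in different libraries, since c15 is the one in which some Magel2 counts were left. Snrpn, the spliceosomal Sm protein N at the other end of the region, had 5.65 CPM in mock against 9.56 (c11), 7.22 (c15) and 8.23 (c22), higher in all 3 knockout libraries (0.56 ± 0.51 SE, edgeR adjusted p = 1). Gm38393, which overlaps Snrpn on the same strand, had 6 to 75 counts, and how reads of the overlap were assigned is not known.

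**Figure D2:**
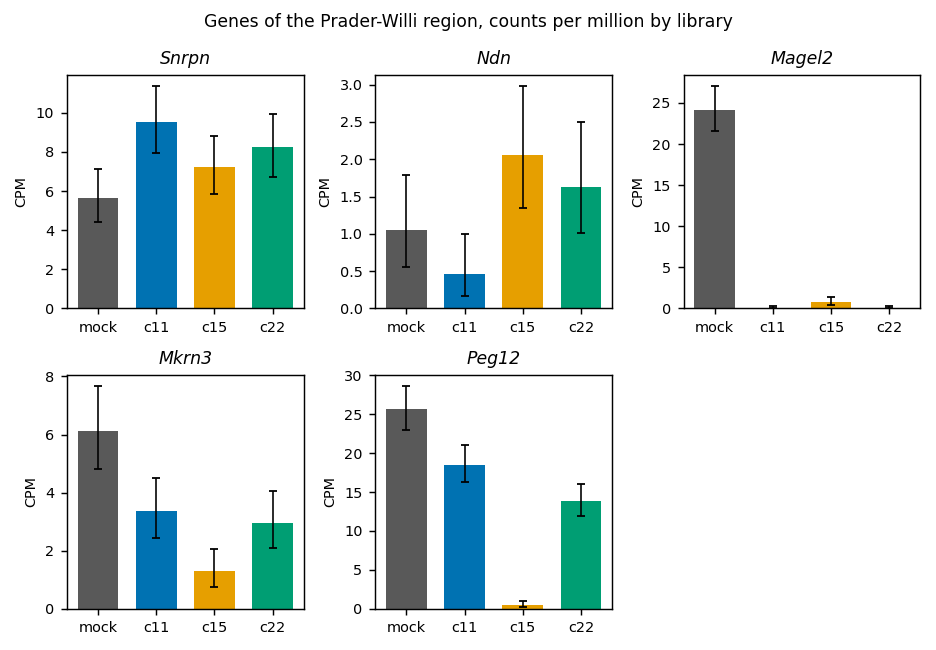
CPM of the 5 genes of the Prader-Willi region in each library, with exact 95% Poisson intervals as error bars; each panel has its own axis from 0. Magel2 is near 0 in all 3 knockout libraries, Peg12 only in c15, and Snrpn is lowest in mock.

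Xlr3c (ENSMUSG00000058147, chromosome X, 73254540 to 73265390, GRCm38, minus strand) had 130 counts in mock and 1 in each knockout library, or 10.5 CPM against 0.0760 to 0.0777 CPM. The ratio of mock to c11 was 137, with a counting interval of 24.2 to 5458. Xlr3b (chromosome X, 73192207 to 73202930, plus strand) had 49 counts in mock against 1 (c11), 2 (c15) and 3 (c22). Both copies were thus low in every knockout library. Xlr3a, 157 kb from Xlr3c, had 28 counts in mock against 225 (c11), 1 (c15) and 4 (c22), or 2.26, 17.2, 0.0760 and 0.311 CPM. It was high in c11, the library with 1 count of each other copy.

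Summed over the 3 copies, the counts were 207 in mock against 227 (c11), 4 (c15) and 8 (c22), or 16.7 CPM (interval 14.5 to 19.1), 17.4 (15.2 to 19.8), 0.304 (0.0828 to 0.778) and 0.621 (0.268 to 1.22). The sum in c11 was therefore within counting error of mock, while c15 and c22 were far below both. Xlr3a held 13.5% of the summed counts in mock (exact binomial interval 9.18% to 18.95%) and 99.1% in c11 (96.9% to 99.9%). Mock and c11 thus differed in the copy to which the reads were assigned, and only c15 and c22 had few reads over the family. The sources used here do not say how reads that fit several copies were counted, so the values of single copies are uncertain. If reads that fit several copies were dropped, each copy was counted through a different share of its length. The sums of mock and c11, made up of different copies, would then not be on the same scale. Of the other genes within 500 kb, Zfp275 had 57.7 CPM in mock and 43.2 to 58.4 in the knockout libraries, Slc6a8 56.2 and 53.4 to 61.4, and Haus7 20.8 and 27.9 to 36.6. F8a, which lies between Xlr3b and Xlr3c, had 2.66 CPM in mock against 2.06 (c11), 0.760 (c15) and 1.09 (c22), and Bgn, the matrix proteoglycan biglycan, had 46.0, 27.3, 6.76 and 6.68 CPM. F8a and Bgn were thus lowest in c15 and c22, the libraries with few Xlr3 counts. Of 13 further Xlr relatives and neighbours on the list, 3 passed the filter (Xlr3a, F8a and Sycp3, a component of the meiotic chromosome axis), and none was called.

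**Figure D3:**
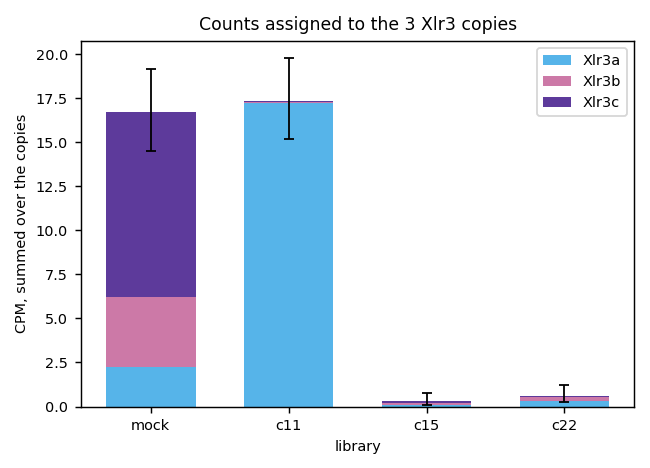
CPM of Xlr3a, Xlr3b and Xlr3c stacked for each library; the error bar is the exact 95% Poisson interval of the sum. The bars of mock and c11 reach 16.7 and 17.4 CPM but consist of different copies, and those of c15 and c22 stay below 1 CPM.

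The growth-related domains of distal chromosome 7 were mostly low and differed among the knockout libraries. Igf2, the fetal growth factor of the IGF axis, had 0 counts in every library. H19, the long noncoding RNA that shares its control region, had 42 counts in mock against 15 (c11), 0 (c15) and 12 (c22). Its level was lower than mock in all 3 knockout libraries (fitted log2 fold change -2.28 ± 0.98 SE, edgeR adjusted p = 1). Against the floor of 3 counts, mock was 14.9-fold over c15. Cdkn1c, an inhibitor of cyclin-dependent kinases, had 2.66 CPM in mock against 15.1 (c11), 0.456 (c15) and 0.854 (c22). One knockout library was thus well above mock and the others below, with c11 33.0-fold over c15 (interval 14.9 to 91.1) and 17.6-fold over c22 (9.64 to 35.9). Its fitted log2 fold change of 1.03 ± 1.88 SE became -2.0 without c11. The opposite-strand gene Gm44732, which overlaps Cdkn1c by 892 bases, had 16, 101, 2 and 8 counts in mock, c11, c15 and c22, the same order as Cdkn1c, and the strand setting of the counting was not given. Phlda2, a restrainer of placental growth, had 17, 7, 14 and 0 counts. Kcnq1ot1, the antisense RNA that silences this domain on the paternal chromosome, had 5.00 CPM in mock against 8.33 (c11), 6.15 (c15) and 5.67 (c22).

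Igf2r, the receptor that clears IGF2 and sorts lysosomal enzymes, was among the abundant members, with 143.7 CPM in mock against 234 (c11), 99.5 (c15) and 322 (c22). The knockout libraries lay on both sides of mock, and c22 was 3.23-fold over c15 (interval 3.04 to 3.44). Airn, the antisense RNA known to silence Igf2r in cis, was also highest in c22, with 2.26, 3.14, 2.81 and 5.67 CPM in mock, c11, c15 and c22. Airn counts were 1.34% to 2.82% of those of Igf2r, which it overlaps by 28354 bases on the opposite strand. The strand setting of the counting was not given, and whether Airn counts include reads of Igf2r was not tested. Plagl1, a zinc-finger transcription factor, had 18.5 CPM in mock against 59.0 (c11), 11.7 (c15) and 52.3 (c22). It shared with Igf2r the order in which c11 and c22 were above mock and c15 below, and c11 was 5.05-fold over c15 (interval 4.24 to 6.04). Grb10, an adaptor that inhibits insulin and IGF1 receptor signalling, had 4.68 CPM in mock and 1.68 to 2.87 CPM in the knockout libraries, all below mock (-0.94 ± 0.59 SE, edgeR adjusted p = 1). The counting intervals of c15 and c22 overlapped that of mock. The ratio of mock to c15 was 1.71 (interval 1.11 to 2.67) and that of mock to c22 was 1.63 (1.06 to 2.53).

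The Dlk1-Dio3 domain of chromosome 12 was at or near 0. Dlk1, Rtl1 and Dio3, its paternally expressed coding genes, had 0 counts in every library, and Mirg had 1 count in c15. Meg3, the maternally expressed long noncoding RNA, had 12 counts in mock against 2 (c11), 4 (c15) and 5 (c22). Rian, a host of small nucleolar RNAs from the same chromosome, had 19, 3, 21 and 5 counts, so that c15 matched mock and c11 and c22 were lower. In the Peg3 domain, Peg3 had 1 to 3 counts a library, Zim1 had 1 count in mock and Usp29 had none. Zdbf2 was at 0 in every library, Slc22a18 had at most 2 counts and Nap1l5 at most 4. No difference was detectable at this depth in Mirg, Peg3, Zim1, Usp29, Zdbf2, Slc22a18 or Nap1l5.

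On proximal chromosome 6, the genes of the Peg10 domain had unlike patterns. Peg10, a retrotransposon-derived Gag-like protein, had 267 CPM in mock against 265 (c11), 400 (c15) and 133 (c22), a 3.01-fold range between c15 and c22 (interval 2.85 to 3.18) around c11, which was within counting error of mock. Asb4, a SOCS-box substrate adaptor expressed from the maternal chromosome, had 131 CPM in mock against 41.1 (c11), 99.5 (c15) and 50.6 (c22). All 3 knockout libraries were below mock for Asb4 (-1.04 ± 0.52 SE, edgeR adjusted p = 1). Sgce, which encodes epsilon-sarcoglycan and lies next to Peg10 on the opposite strand, had 23.2, 29.4, 19.2 and 42.8 CPM in mock, c11, c15 and c22. Sgce was thus highest where Peg10 was lowest. Mest, a hydrolase-fold protein, had 27 to 67 counts over the 4 libraries. Copg2, a COPI coat subunit that overlaps Mest by 912 bases on the opposite strand, had 57.9 CPM in mock against 104 (c11), 53.1 (c15) and 105 (c22).

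**Figure D4:**
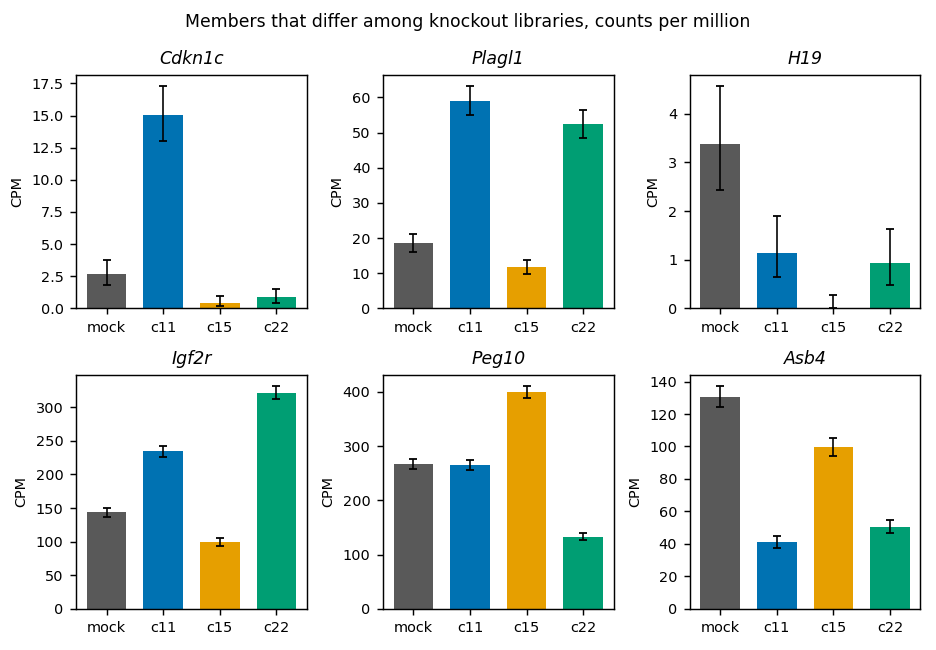
CPM of 6 members that differed among the knockout libraries, with exact 95% Poisson intervals as error bars; each panel has its own axis from 0. Cdkn1c is high only in c11, Plagl1 and Igf2r are low in c15, and Peg10 is highest in c15 and lowest in c22.

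The remaining members include the steadiest of the group. Impact, an inhibitor of the activator of the GCN2 kinase, had 59.6 CPM in mock against 90.7 (c11), 87.3 (c15) and 87.7 (c22). The knockout libraries agreed within counting error (88.6 ± 1.86 CPM, SD, n = 3) and all stood above mock (0.57 ± 0.30 SE, edgeR adjusted p = 1). H13, the signal peptide peptidase, had 109 CPM in mock and 124 to 151 CPM in the knockout libraries. Gnas, the G protein alpha-s subunit and the most abundant member, had 784 CPM in mock against 1165 (c11), 677 (c15) and 1189 (c22). Nearly as many counts (95.6% to 97.8% of those of Gnas) were assigned to Gm20721 on the opposite strand, so reads of the locus may not have been kept apart by strand. Blcap had 23.1 to 36.0 CPM and Nnat, neuronatin, which lies within Blcap on the opposite strand, had 5 to 18 counts.

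Scaled by exon length, the order of the mean levels ran from Gnas (85.3 CPM per kb) through Peg10 (39.9), Igf2r (21.5), Asb4 (20.5), Impact (15.9), Copg2 (15.6) and H13 (14.6) down to Blcap (8.85) and Peg12 (5.53). In mock alone Magel2 reached 5.23 and Xlr3c 6.62 CPM per kb, between Peg12 (9.72) and Snrpn (2.62). Neighbours in this order such as Igf2r and Asb4, or Impact and Copg2, do not differ beyond the range of their libraries.

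The spread among the knockout libraries was not used to choose the members. The log2 range over c11, c15 and c22 (0.5 CPM added) had a median of 1.11 over the 27 tested members, beside 0.69 over all genes tested. These medians were not matched for level, and counting error widens the range at low counts. Magel2, Meg3, Xlr3b and Xlr3c passed the filter only through mock, and Ndn, Phlda2, Rian and Nnat had at most 27 counts in any library. Nothing is therefore read from the difference between the medians. The log2 range reached at least 2, a 4-fold range, in Peg12 (4.31), Cdkn1c (4.03) and Plagl1 (2.29), or 3 of 27 members, where 7.27% of all genes did. H19 (1.72) and Igf2r (1.69) came just below. Without c15 only 1 member (Cdkn1c) had such a range. Impact (0.05) and H13 (0.29) were the steadiest members apart from Xlr3c, which was at 1 count in each knockout library. In 8 members (Igf2r, Plagl1, Rian, Copg2, Sgce, Peg10, Gnas and Blcap) c11 and c22 were on one side of mock and c15 on the other, which was also the case for 26.7% of all genes. The share among the members is near that background.

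By the allele usually expressed, 13 paternally expressed members were tested, with a median fitted log2 fold change of 0.39; 3 were below mock in all 3 knockout libraries and 4 above. Of 9 maternally expressed members tested, 5 were below mock in all 3 and 0 above, with a median of -1.04. Of all genes tested, 22.2% were below and 21.4% above, and nothing is read from the members' counts, which come from the contrast the group was drawn up on. Without Magel2 the paternal count was 2 below and 4 above of 12, and without Xlr3b the maternal count was 4 below (H19, Phlda2, Meg3 and Asb4) and 0 above of 8. H19, Phlda2 and Meg3 had at most 42 counts in any library, and the difference between the classes was not tested.

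Further imprinted genes and the machinery around imprinting were read from lists, each beside the 22.2% of all genes tested that were below mock in all 3 knockout libraries and the 21.4% that were above. Of 31 other imprinted genes tested, none passed in edgeR or DESeq2, 9 were below and 6 above, with a median of 0.02. Dcn, the proteoglycan decorin and also a fibroblast marker, had the lowest fitted value among the genes averaging at least 1 CPM (-1.45 ± 0.77 SE), at 45.0 CPM in mock against 6.27 (c11), 30.9 (c15) and 12.1 (c22). The summed fibroblast markers, a list that includes Dcn itself, were 126, 37.2, 100 and 103 CPM. Because Dcn is part of this sum, the sum is no independent measure beside Dcn. The part of fibroblast RNA in the difference was not tested. Among 18 tested genes of imprint maintenance, 3 were below and 2 above, with a median of -0.09. Dnmt1, the maintenance methyltransferase, had 380 CPM in mock against 234 (c11), 392 (c15) and 241 (c22). Zfp57, the zinc-finger protein that protects methylation at imprinting control regions, was the 1 gene of that list with a 4-fold range among the knockout libraries, with 3.07, 26.6, 5.24 and 75.9 CPM in the same order (3.55 ± 1.64 SE, edgeR adjusted p = 1). All 3 knockout libraries were above mock for Zfp57, by margins that differed widely.

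Of 11 tested genes that set, remove or read DNA methylation, 2 were below and 2 above mock in all 3 libraries. Gadd45a, a DNA damage gene also linked to demethylation, had 1.78 CPM in mock against 61.4 (c11), 30.2 (c15) and 47.1 (c22); DESeq2 called it higher (adjusted p = 2.13e-10) and edgeR did not (4.69 ± 0.71 SE, adjusted p = 0.255). The de novo methyltransferase Dnmt3a had 61.4 CPM in mock and 63.5 to 102 CPM in the knockout libraries. Of 19 Polycomb genes, which keep silenced genes off, 3 were below and 4 above, and no member was called by either tool. The list of MAGEL2 partners held its ubiquitin ligase, the WASH complex, which shapes endosomal actin, and Vps26a, Vps29 and Vps35 of the endosomal retromer. All were tested: of 13, 1 was below (22.2% of all genes) and 7 above (21.4% of all genes), with a median of 0.16. The retromer genes were among the 7 above. Usp7, the deubiquitinase of that ligase, had 280 CPM in mock and 207 to 244 CPM in the knockout libraries, and Washc5 had 76.8 and 97.8 to 129 CPM. These partners were thus present in every library, in which Magel2 ranged from 0 to 24.2 CPM.

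Of 6 other MAGE-family genes tested, 1 was below mock in all 3 libraries and 0 above, and none was called. Mageh1 had 10 CPM in mock against 18.1 (c11), 0.988 (c15) and 1.01 (c22), and Maged2 had 23.2, 82.3, 14.9 and 70.8 CPM. Maged2 was thus above mock in c11 and c22 and below it in c15, as were Plagl1 and Igf2r, while Mageh1 was high in mock and c11, as was the Xlr3 sum. Of 17 tested genes of the IGF pathway, 7 were below mock in all 3 knockout libraries (22.2% of all genes) and 3 above (21.4% of all genes), with a median of -0.30, and none passed in either tool. Igfbp3, a secreted IGF-binding protein, had 15.2 CPM in mock against 0.994 (c11), 3.12 (c15) and 2.48 (c22) (-2.79 ± 0.60 SE, edgeR adjusted p = 0.464). Igf2bp1, an RNA-binding protein that takes its name from Igf2 mRNA, had 0.887, 1.07, 12.99 and 46.4 CPM, low in mock and c11 and high in c15 and c22. Mageh1 and the Xlr3 sum were low, and Igf2bp1 high, in c15 and c22 relative to mock and c11, a likeness picked out after the values were seen. At an unadjusted p under 0.05 in edgeR, these lists held Gadd45a higher, Igfbp3 lower and, of the other imprinted genes, Wars higher and Gpr1 lower, the last pair named after their values were seen. Gpr1 had 14 counts in mock against 0 (c11), 3 (c15) and 0 (c22). It passed the filter only through mock, so nothing is read from its p-value.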

How the data were processed

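The values deposited by the authors are raw read counts for each Ensembl gene in each of 4 libraries. The submitters' processing notes name HISAT2 2.1.0 and featureCounts 1.6.3 with the build GRCm38, beside Trimmomatic 0.38, FastQC 0.11.7 and SAMtools 1.9. Per the labels' protocols, the poly(A) libraries were directional. The sources used here do not give the settings for strand or for reads with several matches. The knockout columns were used as 3 libraries of 1 group, since their names match no single line in the labels.

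All 15706 genes that passed filterByExpr (99.9% of counts) were scaled by TMM and tested with the robust quasi-likelihood test of edgeR 4.0.16 (2-sided, Benjamini-Hochberg, threshold 0.05). The biological coefficient of variation was 0.442. Whether the tumours came from different mice is not labelled. The p-values cover only the variation among these libraries, which includes differences between the knockout lines and may hold no variation between mice. The SE comes from the F statistic. Levels are CPM of TMM-scaled libraries, and log2 ratios add 0.5 CPM. Alternatives were DESeq2 1.42.0, limma-voom (limma 3.58.1), other scalings and filters, leaving out each knockout library and, chosen after seeing the data, the older edgeR dispersion estimates. The older estimates are the default of this edgeR version and gave 0 calls; the newer ones were taken as the main setting after both had been run, because an earlier analysis of these data had used them, so the call of Xlr3c rests on that choice.

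The members and lists were chosen with earlier results of these data known. All members are named, with Hif1a, genes within 500 kb of Magel2 or Xlr3c with at least 10 counts in a library, and up to 4 genes a list, the 2 lowest and 2 highest fitted changes among those averaging 1 CPM or more. Of these neighbours and list genes, those that bear on the members are printed. A gene that belongs to no MAGE family was taken off that list after its values were seen. Sequences are from GENCODE M21 and RefSeq; 37 of 38 members had identical coordinates in GENCODE. Protein sequences were not used here.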

Additional observations from a re-analysis of the deposited data

How the results depend on the processing

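The call of Xlr3c, and with it the 1 gene and 1 member called lower by edgeR, did not hold under the older edgeR dispersion estimates (0 genes, 0 members), in limma-voom (0 and 0) or when any 1 knockout library was left out (0 to 0 for both); its log2 fold change stayed between -6.93 and -6.52 there. Fewer libraries leave fewer residual degrees of freedom; for the other settings the cause was not tested. Without a filter 4 genes were called lower, and DESeq2 called 67 lower and 51 higher, against 1 and 0. Unadjusted, 402 genes were lower and 176 higher at p under 0.05 in edgeR. The number of members above mock in every knockout library was 5 to 11 when 1 library was left out (11 without c15, against 5), and the number with a wide range was 1 to 3 (1 without c15, against 3) and 7 with 0.1 CPM added. The number below mock in every knockout library was 11 to 12 when 1 library was left out, against 10. Shares of all genes were not counted for these settings. Of 265 recomputed fold changes of 27 members, 253 kept their direction and side of the threshold and 7, in 5 members that had passed no test, reversed: Ndn (leave-one-out -0.01 to 0.81), Cdkn1c (-0.52 in limma-voom, leave-one-out -2.0 to 1.57), Mest (-0.01 in limma-voom, leave-one-out -0.41 to 0.35), Peg10 (leave-one-out -0.43 to 0.32) and Nnat (-0.13 in limma-voom). Other scalings changed no count of members. No paired analysis was possible because the mock group has 1 library and the columns carry no shared replicate numbers. The mock library could not be left out. Members with fewer than about 10 counts carry wide intervals.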
